A study of Mus musculus with 4 samples.

Results

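The wild-type line E14-Tg2a, an established line of mouse embryonic stem cells (mESCs), was examined by RNA-seq at d2 and d4 of cardiogenic differentiation for one set of noncoding transcripts. The set holds every row of the count table whose gene carries a Platr symbol with a number, together with Miat, Lncenc1, Tug1, Neat1, Malat1 and Dancr. It was chosen on earlier results of the same comparison, in which Platr10 and Miat were among the deepest differences, so the d4 against d2 values of its members are given as a description and not as a finding. In all, 35 of the 55487 rows belong to it, 29 Platr genes and 6 others. Each day had 2 libraries, from independent differentiation experiments. At d2 the cells were aggregates (embryoid bodies) in a medium without serum. By the protocol, these were then dissociated and formed again with Activin A, BMP4 and VEGF before d4. By the study's account the endothelial induction medium, with more VEGF and with Forskolin, came in from d4 on. The line and its wild-type genotype are common to both days, no sort is described for either, and the values are those of whole cultures of 1 line.

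Long noncoding RNAs are transcripts that are processed much like messenger RNA but are not known to be translated. Platr stands for pluripotency-associated transcript, a name given to noncoding RNAs whose level goes with the undifferentiated state of mESCs, so the name already carries a direction. Lncenc1 is an abundant RNA of naive mESCs, and Miat (Gomafu) is a nuclear RNA best known from neurons that mESCs also make. Malat1 gathers in nuclear speckles, bodies rich in splicing factors, and Neat1 is the RNA around which paraspeckles are built. Tug1 is a widely expressed RNA, and Dancr is a host gene of small nucleolar RNAs (snoRNAs) known for holding back differentiation.

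Library totals ran from 11397439 to 16851485 counts, so 3 counts corresponded to 0.177 to 0.254 CPM, a gene's counts scaled to the size of its library. The culture markers changed with the labels: Pou5f1, the pluripotency factor OCT4, was at 1000 and 721 CPM at d2 and at 4.40 and 3.82 CPM at d4, whereas Kdr, the VEGF receptor of endothelial progenitors, was at 0.654 and 0.683 CPM at d2 and at 601 and 463 CPM at d4. The libraries differed within a day by a trend on GC content, which touches several members and is described with them below. In bulk RNA, fewer cells that make a transcript and less of it in each cell cannot be told apart.

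Of the 35 members, 18 reached the level needed for testing, 12 of them Platr genes. All 18 had a mean of at least 1 CPM on one of the days. The other 17 Platr genes had at most 23 counts over the 4 libraries together. Among them Platr13 and Platr15 had 0 counts throughout, which at this depth allows up to 3 counts in a library. Platr8 had 19 counts at d2 and 4 at d4, Platr7 had 13 and 0, and Platr32, which lies within Alpk3 on the same strand, had 2 and 17. For most of the Platr genes the depth was therefore too low to describe a course. The noncoding label also needs 2 exceptions: Platr17 and Platr25 are annotated as protein-coding genes in GENCODE M21, and RefSeq now lists Platr17 as Smim40, a small membrane protein gene.

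The promoters show how different the members are at the sequence level. RefSeq (GRCm38.p6) gave windows of 300 bases, 250 before and 50 after the start, for 18 of the 35 members and for 20 starts. These starts do not all match the GENCODE gene models used for positions. The windows of Miat, Platr14 and Tug1 lie wholly inside the GENCODE gene, whose outer start is at 112229395, 104559163 and 3649673. Platr10, Miat, Platr14 and Lncenc1 had the highest d2 CPM among the members called lower at d4 (below). Shown here are their windows and that of Platr5, which went the other way. They are in lower case, 5′ to 3′ along the gene, with capitals for the octamer ATGCAAAT (the site of POU factors such as OCT4), the TATA motif TATAAA, the CCAAT box CCAAT and the GC box GGGCGG, each on either strand.
Platr10 (chr3:75655682-75655981, - strand): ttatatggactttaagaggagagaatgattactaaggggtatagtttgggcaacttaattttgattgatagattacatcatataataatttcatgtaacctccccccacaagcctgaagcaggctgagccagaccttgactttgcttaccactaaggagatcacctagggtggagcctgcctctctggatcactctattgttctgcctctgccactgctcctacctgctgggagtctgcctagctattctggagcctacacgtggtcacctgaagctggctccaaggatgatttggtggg
Miat (chr5:112228899-112229198, - strand): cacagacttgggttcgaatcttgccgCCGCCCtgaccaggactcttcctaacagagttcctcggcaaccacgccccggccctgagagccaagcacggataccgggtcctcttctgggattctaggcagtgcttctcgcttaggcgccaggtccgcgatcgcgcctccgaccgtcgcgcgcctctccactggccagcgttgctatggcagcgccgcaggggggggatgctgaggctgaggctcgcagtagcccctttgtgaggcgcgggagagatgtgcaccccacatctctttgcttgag
Platr14 (chr2:104559209-104559508, + strand): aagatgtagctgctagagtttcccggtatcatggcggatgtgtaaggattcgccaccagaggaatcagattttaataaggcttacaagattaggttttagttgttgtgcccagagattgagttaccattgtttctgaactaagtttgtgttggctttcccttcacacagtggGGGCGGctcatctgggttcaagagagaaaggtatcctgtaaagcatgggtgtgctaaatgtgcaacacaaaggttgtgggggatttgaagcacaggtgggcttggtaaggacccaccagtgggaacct
Lncenc1 (chr13:97434720-97435019, + strand): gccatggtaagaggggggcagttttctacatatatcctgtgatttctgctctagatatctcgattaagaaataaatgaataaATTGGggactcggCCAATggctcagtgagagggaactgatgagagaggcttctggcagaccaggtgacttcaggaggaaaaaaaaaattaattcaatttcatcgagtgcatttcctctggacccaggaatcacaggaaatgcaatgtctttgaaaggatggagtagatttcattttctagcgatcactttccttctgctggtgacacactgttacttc
Platr5 (chr1:88754640-88754939, + strand): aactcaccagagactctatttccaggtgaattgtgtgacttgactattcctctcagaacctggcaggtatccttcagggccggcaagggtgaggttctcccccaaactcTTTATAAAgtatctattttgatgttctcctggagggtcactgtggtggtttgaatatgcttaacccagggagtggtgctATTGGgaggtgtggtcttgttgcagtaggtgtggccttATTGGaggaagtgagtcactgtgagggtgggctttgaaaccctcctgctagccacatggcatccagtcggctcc

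Platr10 held 1 CpG in its window and none of the 4 motifs. Miat held 25 CpG and 1 GC box in a window of 64.3% GC. Both lay above 100 CPM in each d2 library and below 1 CPM in each d4 library (below). Platr14 held 4 CpG and 1 GC box, Lncenc1 held 4 CpG and 2 CCAAT boxes, and Platr5 held 2 CCAAT boxes and 2 TATA matches, which overlap each other on opposite strands. The transcripts that persisted to d4 included the richest window, that of Tug1, with 37 CpG and 71.3% GC, and also that of Malat1, with 10 CpG and 47.0% GC. Over the 20 windows the median was 4.5 CpG, against 7 over all 32851 promoters of the table. The octamer was in 1 of the 20, at one of both starts of Platr21, where 1.74% of all promoters hold it. TATAAA was in 1 (13.6% of all promoters), CCAAT in 9 (37.4%) and GGGCGG in 6 (35.7%). A match is a stretch of letters and not a bound site.

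Platr10, a long intergenic noncoding RNA on chromosome 3 (75647446 to 75655731, minus strand, GRCm38), had the widest difference in the set. It was at 203 and 229 CPM at d2 and at 0.254 and 0.0588 CPM at d4, which is 5509 counts against 4. Both d2 libraries were high and both d4 libraries were within a few reads of none. The ratio of normalized counts was 1562-fold lower at d4 (95% counting interval 610 to 5736). The fitted log2 difference, d4 minus d2, was -10.50 ± 0.44 (SE derived from the test statistic, n = 2 per day).

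Miat, on chromosome 5 (112213228 to 112229395, minus strand), followed with 152 and 125 CPM at d2 and 0.169 and 0.177 CPM at d4. The 4 libraries fell into a high pair and a pair near 0, as for Platr10. In counts this was 3501 against 5, or 794-fold lower (interval 340 to 2448), with a log2 difference of -9.56 ± 0.34. Of its exon length, 7.7% is shared with other genes on the same strand, and reads there were not counted for any gene.

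Platr14 was at 26.9 and 35.5 CPM at d2 and at 0.762 and 0.294 CPM at d4. The d4 libraries kept 14 counts between them, and the ratio was 64.6-fold lower (interval 38.3 to 119). Lncenc1 was at 35.7 and 47.6 CPM at d2 and at 2.62 and 2.47 CPM at d4. It was clearly still measured at d4, with 73 counts, and lay 16.3-fold lower (log2 difference -4.03 ± 0.28). Its d4 level stood well above that of 3 counts, which those of Miat did not.

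The small coding gene Platr17 was at 7.52 and 9.11 CPM at d2 and at 0 and 0.177 CPM at d4. It had 212 counts at d2 and 3 at d4, a ratio of 80.2 (interval 27.1 to 392). Platr4 was at 3.68 and 3.57 CPM at d2 and at 0 and 0.0588 CPM at d4, 104-fold lower from 92 counts against 1 (interval 18.3 to 4167). Its interval spans more than 2 orders of magnitude because the d4 value rests on that 1 read.

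Platr22 was the member of this kind with the least contrast, at 5.81 and 4.63 CPM at d2 and 0.762 and 1.35 CPM at d4, 4.78-fold lower (log2 difference -2.26 ± 0.38). Platr3 was at 3.84 and 3.49 CPM and then at 0.254 and 0.118 CPM, 21.1-fold lower (interval 8.73 to 66.5). Platr21 was at 2.21 and 2.35 CPM and then at 0 and 0.177 CPM, 21.9-fold lower (interval 7.14 to 109). In each of the 3 genes both d4 libraries lay below both d2 libraries.

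At the low end, Platr11 was at 1.39 and 1.75 CPM at d2 and at 0 and 0.0588 CPM at d4, 45.4-fold lower (interval 7.69 to 1837). Platr20 was at 1.31 and 1.67 CPM and then at 0.0846 and 0 CPM, 43.1-fold lower (interval 7.28 to 1747). Platr27 was at 1.47 and 1.06 CPM and then at 0.0846 and 0.118 CPM, 12.1-fold lower (interval 3.79 to 61.8). These genes had 32 to 40 counts at d2 and 1 to 3 at d4, so the order of their folds is not resolved.

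Where a d4 level rests on a few reads, the size of the fitted difference depended on which d4 library was kept. Without d4 replicate 2 the value of Platr17 went from -6.22 to -9.69, that of Platr21 from -4.35 to -7.83, that of Platr4 from -6.38 to -8.49 and that of Platr11 from -5.18 to -7.29, in each case with 0 counts left at d4, so that the value depends on the prior count. Platr20 went from -5.09 to -7.41 without d4 replicate 1, also with 0 counts left, and to -3.98 without d4 replicate 2. Platr10 lay at -11.64 without d4 replicate 1 and at -9.68 without d4 replicate 2, and Platr14 at -6.68 and -5.34. Without d4 replicate 1, Platr17 was at -5.49, Platr21 at -3.62, Platr4 at -5.74 and Platr11 at -4.54. The sign of these members held in each case.

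**Figure D1:**
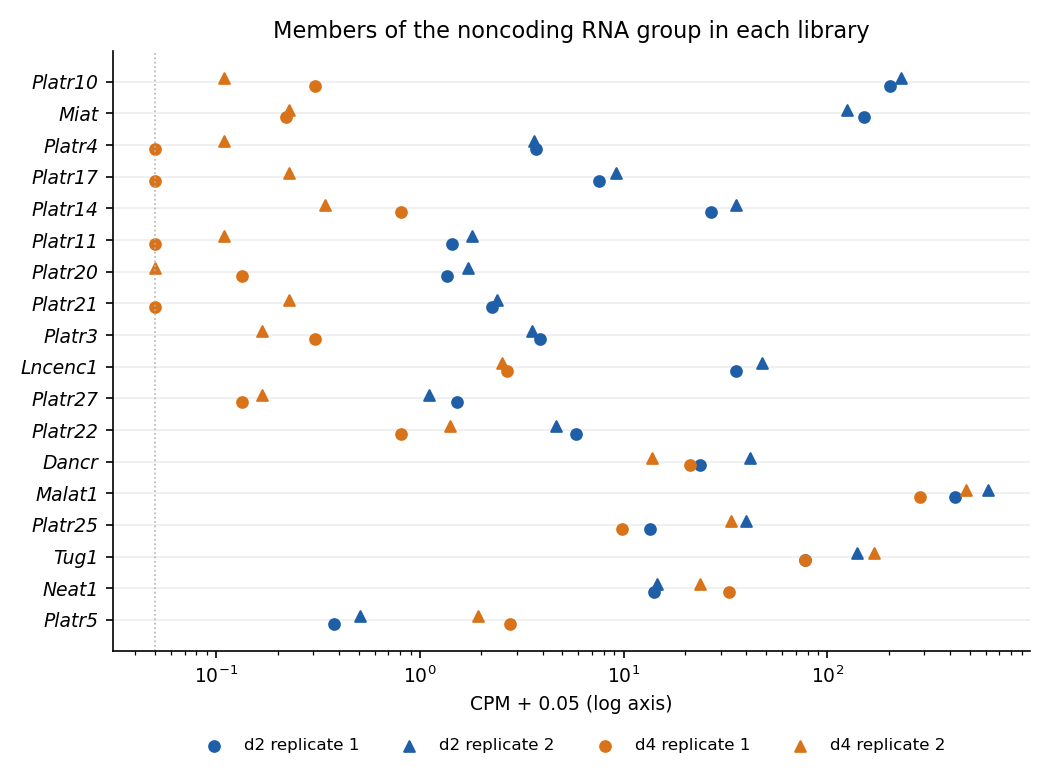
CPM of the 18 tested members in each library, on a log axis after adding 0.05, with circles for replicate 1, triangles for replicate 2, blue for d2 and orange for d4; the dotted line marks 0 counts. From Platr10 to Platr22 the orange symbols lie to the left of the blue ones, Platr10 being at 203 and 229 CPM at d2 and at 0.254 and 0.0588 CPM at d4, while Platr5 at the bottom shows the opposite order.

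Platr5, on chromosome 1 (88754890 to 88755736, plus strand), was the tested Platr gene that was higher at d4. It was at 0.327 and 0.456 CPM at d2 and at 2.71 and 1.88 CPM at d4. Both d4 libraries were above both d2 libraries, at 64 counts against 10, or 5.64-fold higher (interval 2.88 to 12.3). Its mean of 0.391 CPM at d2 lay under the 0.5 CPM of the level filter, so Platr5 was tested through d4, where it was higher. It was called in 13 of the 19 fits run, and nothing is read from its direction.

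Neat1 was at 14.1 and 14.6 CPM at d2 and at 32.9 and 23.7 CPM at d4. The groups did not overlap and the fitted difference was 1.97-fold (log2 0.98 ± 0.25), short of the cutoff used here for calling a gene (adjusted p under 0.01). This depended on the fit, since Neat1 was called in 7 of the 19 fits run, among them DESeq2, the GC trend removed, the replicate block and a cutoff of 0.05. Malat1, the most abundant member by count, was at 424 and 616 CPM at d2 and at 286 and 481 CPM at d4. Its days overlapped, with a log2 difference of -0.44 ± 0.31, which was narrower than the gap between its libraries on either day. The share of Malat1 among all counts of the set was 42.4% and 46.7% at d2 and 65.6% and 65.9% at d4. The d2 totals behind these shares include Platr10 (203 and 229 CPM) and Miat (152 and 125 CPM), on which the choice of the set partly rested. Both genes were below 1 CPM in each d4 library, so the share became larger without a rise in Malat1 itself. Nothing is read from this share.

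Tug1 was at 78.0 and 140 CPM at d2 and at 77.3 and 170 CPM at d4. The first libraries of both days were nearly equal, and the log2 difference was 0.18 ± 0.42. Platr25 was at 13.4 and 40.0 CPM at d2 and at 9.82 and 33.7 CPM at d4 (log2 difference -0.29 ± 0.65). For both genes the spread within a day was wider than the difference between days. Dancr was at 23.6 and 41.5 CPM at d2 and at 21.2 and 13.7 CPM at d4, with a log2 difference of -0.90 ± 0.35. Its days did not overlap although the first libraries of both days lay close together, and it was past the cutoff in 3 of the 19 fits.

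Counted over the fit, 12 of the 18 tested members were past the cutoff and lower at d4, 10 of them Platr genes, 1 was past it and higher, and 5 were not past it. Over all 14932 genes tested the shares were 11.3% lower and 12.9% higher. Among the 827 other long noncoding RNA genes they were 11.9% and 11.2%. Both d4 libraries were below both d2 libraries for 13 members and above them for 2, against 35.2% and 35.8% of all genes. The median log2 difference was -4.17 over the tested members and -0.03 over all genes. The set was picked on this comparison. A transcript present only at d2 passed the level filter through d2, and Platr5 passed it through d4. These counts therefore describe the set and nothing is read from them. Summed over the Platr genes other than Platr25, the level was 260 and 295 CPM at d2 and 6.26 and 5.30 CPM at d4. Platr10, on which the choice of the set rested in part, made up 203 and 229 CPM of these d2 sums. With Platr25 included, the sums were 274 and 335 CPM at d2 and 16.1 and 39.0 CPM at d4.

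Levels can be ranked between genes only per exon length, and the order changed with the day. Among the tested members at d2, in CPM per kb of exon, Platr10 came first (117 and 131), above Malat1 (60.7 and 88.2), and the ranges of these genes did not overlap. Below them, Platr14 (17 and 22.5), Dancr (10.0 and 17.7), Miat (16.3 and 13.4), Lncenc1 (10.8 and 14.4), Tug1 (8.01 and 14.4), Platr17 (9.32 and 11.3) and Platr3 (9.33 and 8.48) each overlapped the next in range, so neighbours in this order are not resolved. The remaining tested members were between 0.546 and 6.48 in every d2 library, and Neat1, whose long form spans 20.8 kb, was among the lowest at 0.677 and 0.702 over that full length.

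Among the tested members at d4, Malat1 led with 40.9 and 68.9 CPM per kb, followed by Tug1 (7.94 and 17.4) and Dancr (9.02 and 5.84), whose ranges overlapped. Platr5 (4.73 and 3.29) and Platr25 (1.59 and 5.45) overlapped as well, and Neat1 was at 1.59 and 1.14. Lncenc1 (0.795 and 0.749) and Platr22 (0.471 and 0.837) were next, and of the other tested members Platr14 and Platr3 exceeded 0.4 in a library. Among all 14932 genes, Platr10 ranked 351 by mean level per kb at d2 and 14111 at d4, and Malat1 ranked 639 and 826.

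**Figure D2:**
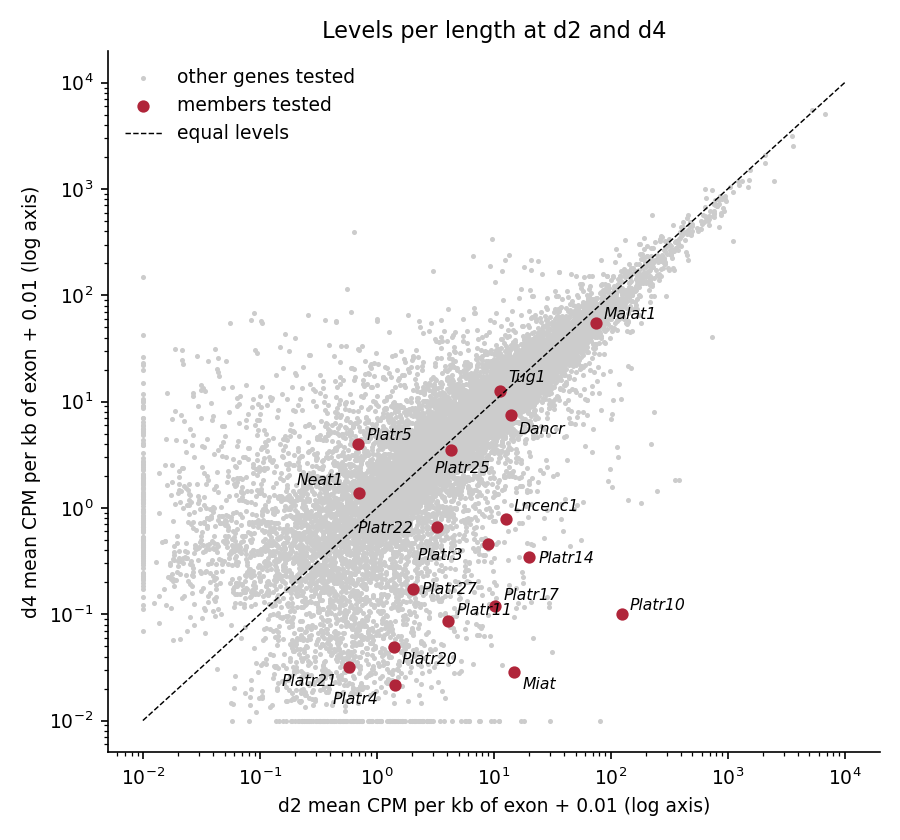
Mean CPM per kb of exon at d2 (x axis) and d4 (y axis), both on log axes after adding 0.01, for all 14932 tested genes in grey and the 18 tested members in red, with a dashed line at equal levels. Malat1 and Tug1 lie close to the line and Platr5 and Neat1 above it, whereas Platr10 (124 at d2, 0.0896 at d4) and Miat (14.9 and 0.0186) lie far below it.

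The difference between the libraries of one day is a measure the choice of members did not use. Among the persistent transcripts it ran the same way on both days, with replicate 2 higher, for 3 genes of low GC content. Platr25 was higher in replicate 2 than in replicate 1 by 1.58 on the log2 scale at d2 and 1.78 at d4, Tug1 by 0.84 and 1.13, and Malat1 by 0.54 and 0.75. Lncenc1 differed by 0.41 at d2 and -0.09 at d4 and Neat1 by 0.05 and -0.48. Dancr turned around, at 0.82 at d2 and -0.63 at d4.

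For Platr25, Tug1 and Malat1 these differences ran in the direction of a trend on base composition. Platr25, Tug1 and Malat1 have longest transcripts of 38.6%, 37.9% and 42.5% GC, while Lncenc1, Neat1 and Dancr have 45.6%, 47.3% and 47.9%. Among the 11065 genes with at least 20 counts in every library, those at or below 40% GC had a median of 0.74 at d2 and 1.06 at d4 for replicate 2 over replicate 1 (log2), and those above 60% had -0.52 and -0.23. Genes above 40 and up to 45% GC, the range of Malat1, had medians of 0.39 and 0.24. Platr25, Tug1 and Malat1 each lay above the median of their own GC range on both days. Across these genes the correlation of GC with the ratio was -0.78 at d2 and -0.57 at d4, a description over genes that share the same 4 libraries. Platr25 stood at percentile 99.4 and 97.6 of the ratio, Tug1 at 96.1 and 94.4 and Malat1 at 88.4 and 90.9. Dancr stood at percentile 95.8 at d2 and 3.8 at d4, while its GC content is close to the 49.7% median of all genes tested. Further members above 40 and up to 45% GC could be compared at d2 only, where the median of that GC range was 0.39. Platr14 was at 0.40. Platr22 (-0.33), Platr3 (-0.14), Platr4 (-0.04) and Platr21 (0.09) lay below that median, each with at most 71 counts in a d2 library.

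A GC trend was also removed by a fit to each library's deviation from the mean of all 4 libraries. Such a fit takes out a GC trend between the days as well as one within a day. With it removed, the log2 difference between days was 0.62 for Tug1 (0.18 without this step) and -0.27 for Malat1 (-0.44). The difference was 0.10 for Platr25 (-0.29) and -0.96 for Dancr (-0.90). Platr25 thus changed sign with this step, and Tug1 went past the cutoff. Leaving out a library also turned the sign of both: by edgeR, Tug1 lay between -0.49 (without d4 replicate 2) and 0.64 (without d4 replicate 1), and Platr25 between -1.44 (without d4 replicate 2) and 0.67 (without d2 replicate 2). Platr10 (-10.55) and Miat (-9.67) moved little. The tested members had a median GC of 46.2%, against 49.7% for all genes tested, and a median exon length of 2046 bases, against 4198.

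**Figure D3:**
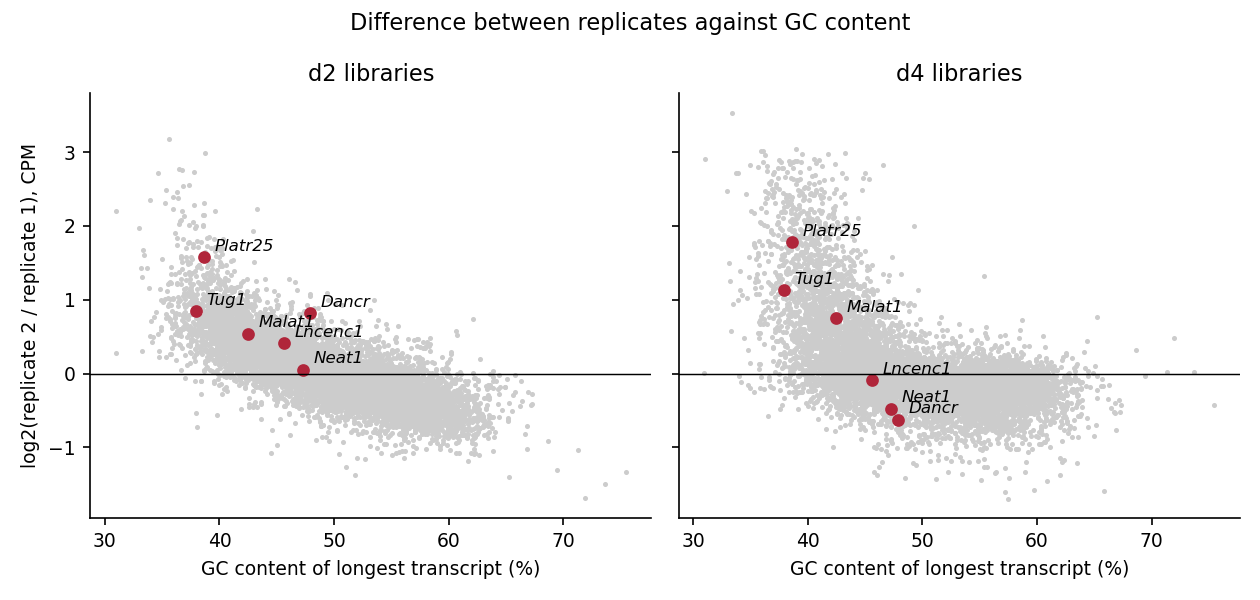
The log2 ratio of replicate 2 to replicate 1 (y axis) against the GC content of the longest transcript in percent (x axis), at d2 (left) and d4 (right), for 11065 genes in grey and the 6 members with at least 20 counts in every library in red. Platr25, Tug1 and Malat1 sit at the GC-poor, high end on both days, and Dancr is high at d2 (0.82) and low at d4 (-0.63).

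Protein-coding genes next to the members were not part of the choice and could be tested. Within 100 kb, 17 of the 18 tested members had such neighbours, 25 genes in all, of which 22 were tested. Past the cutoff, 4 rose and 4 fell by d4, and the other 14 did not reach it. Over all 14932 genes tested, 12.9% were called higher and 11.3% lower. The tested neighbours had a median log2 difference of -0.24, against -0.03 over all genes.

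Serpini1, which encodes the serine protease inhibitor neuroserpin, ends 3950 bases from the 3′ end of Platr10, on the other strand. It was at 8.50 and 13.5 CPM at d2 and at 0 and 0.353 CPM at d4. It fell 53.3-fold (counting interval 24.2 to 147; edgeR quasi-likelihood adjusted p = 0.00093), so both genes of this pair were near 0 at d4. Trap1a, a tumour rejection antigen gene that overlaps Platr21 on the opposite strand, was at 16.8 and 21.9 CPM and then at 0.254 and 0.530 CPM. It fell 46.7-fold (interval 26.5 to 91.0; edgeR adjusted p = 0.00013). On the other side of Platr21, Mum1l1, 1890 bases away, went the opposite way, from 6.46 and 10.1 CPM to 47.3 and 199 CPM. It rose by 3.89 ± 0.68 on the log2 scale (edgeR adjusted p = 0.0042), with a wide gap between its d4 libraries, and did not pass by limma voom.

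Eomes, the T-box factor of early mesoderm and endoderm, lies 72112 bases from Platr11 on the opposite strand. It was at 9.98 and 14.2 CPM at d2 and at 239 and 216 CPM at d4, an 18.8-fold rise (log2 4.23 ± 0.26; edgeR adjusted p = 8.7e-05). Platr11 and Eomes therefore had opposite signs. Hipk3, a protein kinase gene 64716 bases from Platr14, rose from 19.1 and 24.4 CPM to 58.6 and 99.7 CPM (log2 1.86 ± 0.31; edgeR adjusted p = 0.0033). Cstf3, a cleavage stimulation factor gene on the other side of Platr14, was at 82.5 and 115 CPM and then at 100 and 121 CPM.

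Gm12569, 54 bases from Platr20 on the opposite strand, was at 1.06 and 1.75 CPM at d2 and at 0 and 0.118 CPM at d4, 36 counts against 2. It fell 20.4-fold (interval 5.26 to 175; edgeR adjusted p = 0.0064). Arl4c, a small GTPase gene 52668 bases from Platr5, fell from 110 and 101 CPM to 51.2 and 53.5 CPM (log2 difference -1.01 ± 0.19; edgeR adjusted p = 0.0059), opposite to Platr5. Rasl11b, a RAS-like GTPase gene 99879 bases from Dancr, rose from 3.52 and 3.87 CPM to 9.48 and 8.41 CPM (log2 1.27 ± 0.27; edgeR adjusted p = 0.0098), at the edge of the cutoff.

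Near Miat, the crystallin gene Cryba4 had 1 count in the 4 libraries and could not be compared. Neighbours of the members that were lower at d4 included genes that fell, genes that rose and genes that did not pass. Of the 8 calls, those of Serpini1, Trap1a and Eomes held in 17 of the 19 fits run, all except edgeR without a d2 library, while Arl4c held in 11 and Rasl11b in 8.

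**Figure D4:**
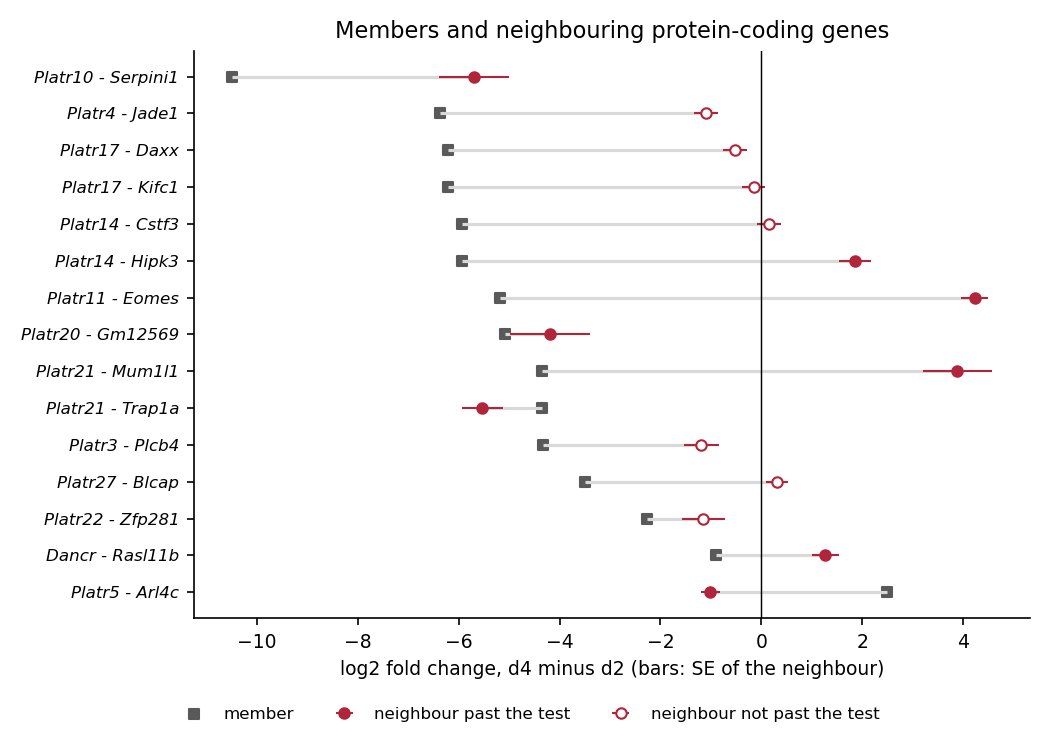
Log2 fold changes, d4 minus d2, of a member (grey square) and of a tested neighbouring protein-coding gene (circle with SE, filled where past the test), one pair per line, for the 15 pairs in which the member or the neighbour was past the cutoff. Serpini1, Trap1a and Gm12569 lie on the same side as their member, while Eomes (4.23), Mum1l1 (3.89) and Hipk3 (1.86) lie on the opposite side.

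The protein partners of Malat1 and Neat1 were looked at as lists of the bodies they belong to. Of 16 paraspeckle protein genes, all tested, 1 fell, none rose and 15 did not pass, with a median log2 difference of -0.24. For this list and those below, the shares over all 14932 genes tested were 11.3% lower and 12.9% higher. The gene that fell was Pspc1, paraspeckle component 1, at 162 and 175 CPM at d2 and 55.5 and 63.0 CPM at d4 (log2 -1.51 ± 0.20; edgeR adjusted p = 0.0012). The core partners Sfpq and Nono had log2 differences of -0.44 ± 0.18 and 0.17 ± 0.17. Neat1 and Pspc1 thus had differences of opposite sign, and Neat1 was called in 7 of the 19 fits and not in the one reported.

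Of 16 nuclear speckle protein genes, all tested, 0 passed by edgeR at the adjusted cutoff, 0 by DESeq2 and 0 by limma voom. An unadjusted edgeR p under 0.05 was found for 3 of them, against 7044 of all 14932 genes tested. Their median log2 difference was -0.11. Srrm2 and Son, which encode the scaffolds of speckles, had log2 differences of -0.22 ± 0.20 and -0.05 ± 0.19.

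The other host genes of snoRNAs, the group to which Dancr belongs, had a median of -0.72. Of 18 tested, 2 fell, 1 rose and 15 did not pass, where 11.3% of all genes tested were called lower and 12.9% higher. The calls were thus no more frequent in this group than over all genes. Snhg11 fell from 119 and 132 CPM to 44.1 and 37.6 CPM (log2 -1.61 ± 0.20; edgeR adjusted p = 0.0011), and Snhg5 fell from 238 and 321 CPM to 138 and 126 CPM (log2 -1.08 ± 0.22; edgeR adjusted p = 0.0081). Snhg18 rose from 1.80 and 1.90 CPM to 7.19 and 5.41 CPM (edgeR adjusted p = 0.0050). Gas5, the best studied of these hosts, was at 493 and 660 CPM and then at 327 and 332 CPM, with a log2 difference of -0.81 ± 0.21, close to that of Dancr, and did not pass.

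Among 31 other regulatory long noncoding RNAs, 23 were tested, 6 rose, 7 fell and 10 did not pass, with a median of -0.33. H19, an imprinted RNA of mesoderm and endoderm, rose from 0.491 and 0.456 CPM to 47.1 and 40.0 CPM (90.9-fold, interval 51.8 to 176; edgeR adjusted p = 4.5e-05). Fendrr, an RNA of lateral mesoderm, had 0 counts at d2 and 20.1 and 16.5 CPM at d4, a rise of at least 77.2-fold when d2 is set to 3 counts in each library (edgeR adjusted p = 0.00013). Meg3, an imprinted RNA of mESCs, fell from 860 and 810 CPM to 149 and 145 CPM (log2 -2.51 ± 0.19; edgeR adjusted p = 0.00014). Mirg, of the same imprinted cluster, fell from 80.1 and 76.6 CPM to 10.6 and 8.88 CPM (edgeR adjusted p = 0.00013). Long noncoding RNAs outside the set therefore changed in both directions.

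For comparison with the Platr genes, 19 of 20 coding pluripotency genes were tested, of which 13 fell, 2 rose and 4 did not pass, with a median of -3.07. Pou5f1 was 209-fold lower (edgeR adjusted p = 4e-05). Fgf4, a growth factor gene of the epiblast, fell from 49.7 and 52.8 CPM to 0.339 and 0.412 CPM, and Dppa5a, an RNA-binding protein gene of mESCs, fell from 144 and 131 CPM to 2.20 and 2.77 CPM. Tbx3, listed for its role in mESCs but also a factor of cardiac mesoderm, rose from 0.245 and 0.304 CPM to 160 and 161 CPM. Klf4, the other gene of this list that rose, went from 0.245 and 0.607 CPM to 6.18 and 5.47 CPM. Of 14 endothelial and mesoderm genes all 14 rose, with a median of 6.49. Among them, Cdh5, which encodes VE-cadherin, went from 2 counts at d2 to 136 and 89.6 CPM at d4, Gata4 rose from 0.409 and 0.228 CPM to 132 and 104 CPM, and Hand1 had 0 counts at d2 and 312 and 280 CPM at d4.

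**Figure D5:**
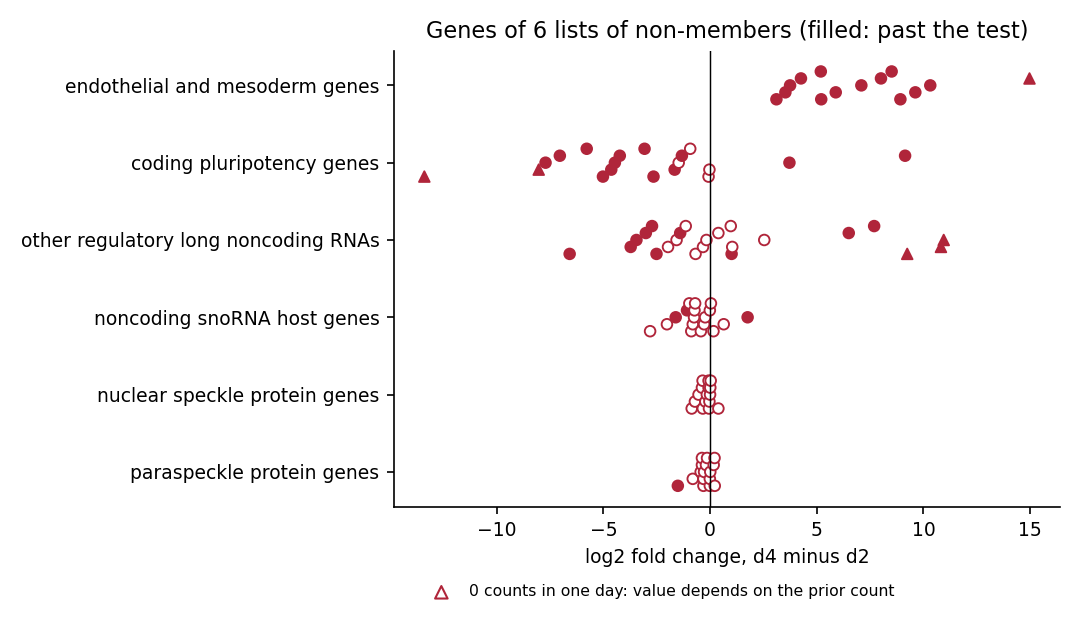
Log2 fold changes, d4 minus d2, of the tested genes of 6 lists of non-members, each point a gene, filled where past the test, with triangles for genes at 0 counts on one day, whose value depends on the prior count. The paraspeckle and speckle lists cluster near 0, with medians of -0.24 and -0.11, and the endothelial and mesoderm genes all lie above 0.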

How the data were processed

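RNA was measured in 4 libraries, 2 at d2 and 2 at d4. The authors deposited raw counts per gene: by the study's methods, strand-specific paired-end reads were trimmed with cutadapt, aligned to mm10/GRCm38 with STAR and counted with featureCounts, leaving out multi-mapping reads and reads over more than one gene. The deposited counts carry no normalization. Whether polyadenylated or total RNA was sequenced is not given in the sources used here; Malat1 and Neat1 levels depend on it. GENCODE M21 supplied symbols and positions.

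The level filter compared each gene's counts, summed over a day, with 0.5 CPM (proportion test, one-sided, adjusted p under 0.05 at d2 or d4) and left 14932 genes. Days were compared with edgeR 4.0.16 (R 4.3.3): TMM factors, glmQLFit and glmQLFTest, day as the only term, two-sided, Benjamini-Hochberg adjusted p under 0.01 over all genes. CPM are TMM-normalized. An exact permutation test of 2 against 2 cannot go below p = 0.333. Where a gene had 20 counts or fewer on a day, folds are ratios of summed counts with exact 95% binomial intervals, which cover counting error only; at 0 counts the fold is a bound against 3 counts per library. GC content is that of a gene's longest transcript. Alternatives changed the scaling factors, the filter, the cutoff, the test (DESeq2 1.42.0, limma 3.58.1), a GC trend, a replicate block and the libraries used. The fits were tested on simulated data without a GC trend or a shared replicate effect, with changes only in well measured genes. That test does not cover members near 0 counts.

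The members and lists were chosen with earlier results of these data known. Members with at least 1 CPM on a day are given per library; of each list up to 4 genes past the test with the smallest p are named, and all neighbours past it. Cstf3, Cryba4, Sfpq, Nono, Srrm2, Son, Gas5 and Klf4 were added by name after their values were seen. One neighbouring gene is not reported here by name.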

Additional observations from a re-analysis of the deposited data

How the results depend on the processing

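Median log2 differences of the members stayed between -4.26 and -4.09 under the alternatives that kept all 4 libraries, and between -4.27 and -3.85 when a library was left out. No member past the cutoff changed sign in any of the 19 fits. By DESeq2 on all 4 libraries, 11 of the 18 tested members and 1895 of all 14932 genes tested were lower at d4. Platr27 did not pass there and was called in 12 of the 19 fits. Leaving out either d2 library left edgeR with 0 calls over all genes, although 6257 (without d2 replicate 1) and 5973 (without d2 replicate 2) genes had an unadjusted p under 0.05 and DESeq2, added after seeing the data, called 1774 and 1695. Over all left-out libraries and both tools, genes lower at d4 ranged from 0 to 2458, genes higher from 0 to 2264, members lower from 0 to 13, members higher from 0 to 2, neighbours past the test from 0 to 12, coding pluripotency genes from 0 to 16, endothelial and mesoderm genes from 0 to 14, other regulatory long noncoding RNAs from 0 to 15, snoRNA hosts from 0 to 4, paraspeckle genes from 0 to 2 and speckle genes from 0 to 1.

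Of all genes, 2991 were higher and 2679 lower at adjusted p under 0.05, and 2901 and 2873 with no filter. With the GC trend removed 2704 were higher and 2607 lower. Members higher at d4 numbered 2 at adjusted p under 0.05, with no filter, by DESeq2 and with the replicate block, and 3 with the GC trend removed, with or without the block; the added genes were Neat1 and, with the GC trend removed, Tug1. Host genes of snoRNAs past the test numbered 8 at adjusted p under 0.05, 9 with no filter, 5 by DESeq2 and 7 with the GC trend removed. With no filter, 2 paraspeckle and 2 speckle genes passed.

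The replicate block, which treats libraries of the same number as paired, called 3478 genes higher and 3496 lower, 13 neighbours, 11 snoRNA hosts, 3 speckle genes and 2 paraspeckle genes; together with GC removal it called 3064, 3022, 13, 9, 1 and 2. Same-numbered libraries deviated together from their day means (r = 0.57 over 14932 genes, the same value for both numbers by construction), but although the libraries come from independent experiments, no source used here says that a number marks the same experiment on both days. The cause of these changes was not tested. Depth limits the d4 values of Platr4, Platr11 and Platr20, each at 1 count.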
